A study of Rattus norvegicus with 18 samples.

Results

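Zinc finger protein genes were followed in rat kidney cells exposed to the fungicide chlorothalonil. The members were the genes whose symbol on the array platform is Zfp or Znf followed by digits, with letters allowed at the end. Zfp36, Zfp36l1 and Zfp36l2 were left out. Of 215 such names on the array, with 338 probe sets, 166 lay above log2 4 in 3 or more of the 18 arrays and are described here, among 9149 genes tested in all. Each gene was represented by its brightest probe set, by the mean over the 18 arrays. The members were thus chosen by name and by level over all arrays. Zfp819 was above log2 4 in no DMSO array and Zfp12 in no treated array, so each passed through 1 treatment only. The calls of Zfp819 (higher at 72 h) and Zfp12 (lower at 6 and 72 h) are therefore tied to the filter. The group itself was chosen with earlier results of these data known. Its shares of calls beside those of all genes are therefore a description and no independent test. The other 49 names stayed near background, with a median mean level of log2 2.50.

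The cells were NRK-52E, an established epithelial line from rat kidney proximal tubule (Osborne-Mendel strain). Confluent cultures were given either 1.1 µM of the compound, dissolved in DMSO (0.1%), or the solvent. Per the labels this is the concentration for 10% inhibition after 72 h. Arrays were made after 6, 24 and 72 h, in 6 groups of 3 that the labels call biological replicates, and the comparisons ask which transcripts the fungicide moves at each time. All cells are of 1 line, so the p-values measure the spread between its cultures.

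Most Zfp and Znf genes encode proteins with C2H2 fingers, in which a zinc ion held by cysteines and histidines folds a short stretch of protein that can read DNA. Many also carry a KRAB domain, which recruits the co-repressor Trim28 and, with it, histone methylation and heterochromatin. Others carry SCAN or BTB domains, and some members are not DNA-binding factors at all but work on ribosomes, RNA, ubiquitin or the actin cytoskeleton. The name thus joins genes by a protein fold rather than by 1 pathway.

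Replicate arrays of a group correlated at 0.992 to 0.998 over the genes tested. The label was checked against kidney markers. Of 13 proximal tubule markers 3 lay above log2 4 in at least 3 arrays (Mme in 18, Ggt1 in 15 and Aqp1 in 3), while Lrp2, Cubn and Slc34a1 were at background in every array. Of 9 epithelial markers 3 were above it (Krt8, Tjp1 and Cdh2, each in 18 arrays). Cdh1, Epcam, Krt18, Krt19, Cldn1 and Cdh16 were at background in every array. Of 9 fibroblast markers 4 were above in 3 or more arrays. Of 5 endothelial, 5 leukocyte and 5 distal nephron markers on the array, 1, 1 and 0 were, and of 4 podocyte markers 2 were (Synpo and Wt1). Changes in RNA per cell and in the share of cells that make a transcript cannot be told apart in such bulk samples.

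On the scale of the deposited values, which sets each array against its own overall distribution, zinc finger genes were called lower more often than higher at 6 and at 72 h. Called means an adjusted p under 0.05 in limma, a linear model for arrays that pools the spread across genes. At 6 h, 96 of the 166 members were lower and 18 higher after chlorothalonil, against a background of 31.8% lower and 27.8% higher among all genes. The median change of the members was −0.50 on the log2 scale and that of all genes −0.01. At 24 h 59 members were lower and 40 higher, against 31.1% and 39.1% of all genes, with a median of −0.15 against 0.06. At 72 h 74 were lower and 21 higher, against 27% and 37.2% of all genes, with a median of −0.28 against 0.07. As shares of the members, the lower calls came to 57.8%, 35.5% and 44.6% at the 3 times.

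The members' medians depend on which names are counted and on how arrays are scaled. Over all 215 names with no level filter, so with the 49 near background, the medians were −0.25, −0.04 and −0.12. With each array centred on its own median the 24 h value was −0.08. With arrays scaled to the spiked poly-A control transcripts, which were brighter on treated arrays (group means of 10.77, 11.05 and 10.87) than on DMSO arrays (10.17, 10.00 and 10.21), the medians became −1.10, −1.21 and −0.93, and those of all genes −0.61, −1.003 and −0.58. On that scale the members' calls were 0 higher and 112 lower at 6 h, 1 and 130 at 24 h, and 1 and 102 at 72 h. The lower calls took in 36.7%, 67.1% and 35.5% of all genes on that scale, and the higher ones 2.54%, 2.8% and 3.42%. Directions below are those of the deposited scale. Calls of a rise rest on it at each time, except that Zfp622 at 24 h and Zfp956 at 72 h were also called on the poly-A scale. DMSO array 1 at 24 h stood apart in these controls, at 9.17 against 10.08 to 10.51 in the other DMSO arrays.

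Each array shows the shift. For every gene the level was set against its own mean over the 18 arrays, and the median of these deviations was taken over the members. At 6 h the treated arrays had −0.41, −0.52 and −0.48 and the DMSO arrays 0.0013, 0.03 and 0.0026, so the groups did not overlap. At 24 h the treated arrays had −0.16, −0.12 and −0.08 and the DMSO arrays 0.03, 0.11 and −0.07, which left a narrow gap. At 72 h the treated arrays had 0.17, 0.22 and 0.17 and the DMSO arrays 0.34, 0.42 and 0.46. Both treatments thus ended with the members above their level at 6 h, and the treated arrays were below the DMSO arrays at each time. The plot of array medians sets the same values beside those of all genes, which stayed between −0.12 and 0.11.

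**Figure D1:**
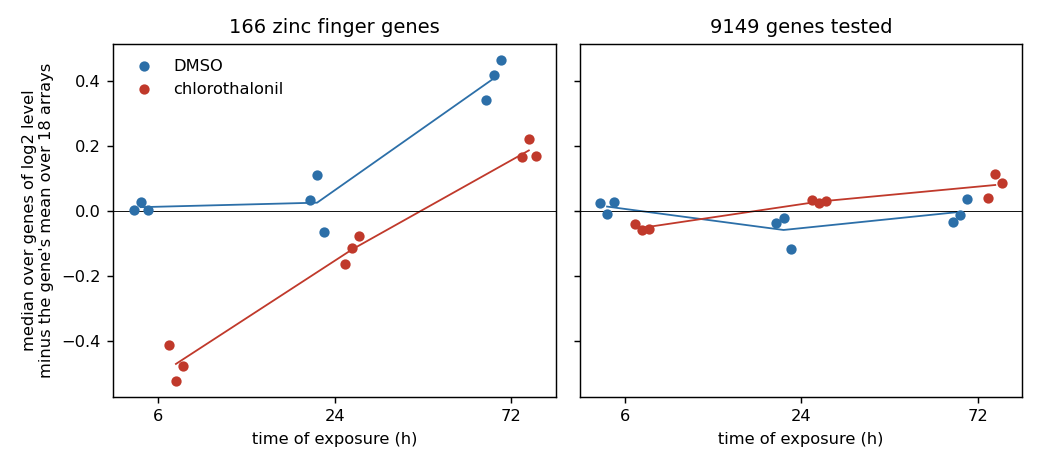
Median over genes of the log2 level minus the gene's mean over the 18 arrays, for 166 zinc finger genes and for all 9149 genes tested. Each point is 1 array, lines join the means of 3 arrays per group, and the x axis gives the time of exposure in hours in even steps. The treated arrays at 6 h lie between −0.52 and −0.41 for zinc finger genes and those of DMSO between 0.0013 and 0.03.

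The shift was spread over much of the group rather than set by a few genes. At 6 h 132 of 166 members (79.5%) had a change below 0, against 50.8% of all genes, and the quartiles of the members lay at −0.88 and −0.06. At 24 h 59% were below 0, against 46.5%, and at 72 h 72.3%, against 44%. Calls with a change of at least 2-fold were fewer: 33 lower and 4 higher at 6 h, 14 and 6 at 24 h, and 12 and 3 at 72 h. At 6 h these were 19.9% and 2.41% of the members, against 6.85% and 4.62% of all genes. At 24 h the lower ones were 8.43%, near the 8.1% of all genes, and the higher ones 3.61% against 10.6%. At 72 h the shares were 7.23% and 1.81%, against 4.54% and 7.68%. The percentile curves show the members' curve to the left of that of all genes through the middle of the range at 6 and 72 h, and close to it in the lower tail at 24 h.

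**Figure D2:**
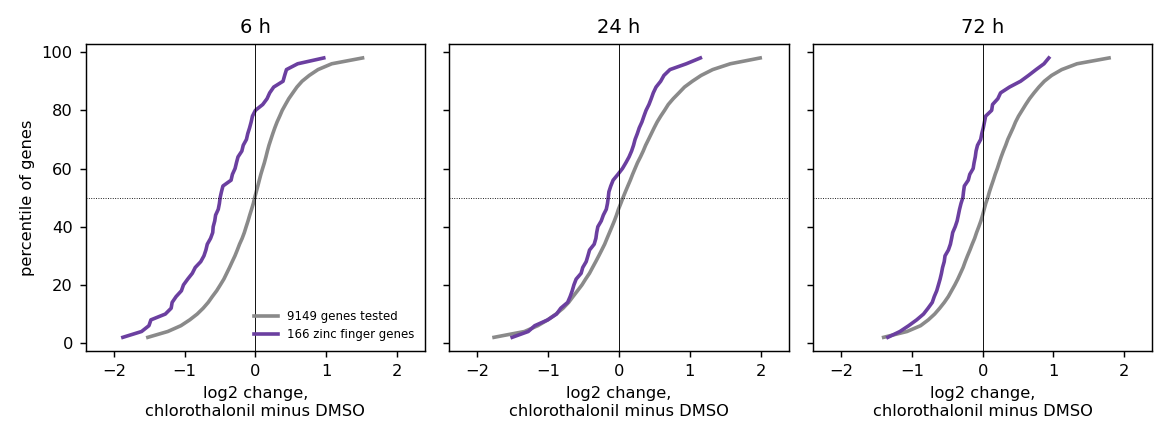
Percentiles of the log2 change, chlorothalonil minus DMSO, of 166 zinc finger genes and of all 9149 genes tested, at each time. The x axis is the log2 change and the y axis the percentile of genes. The curves cross the dotted line of the median at −0.50 and −0.01 at 6 h, at −0.15 and 0.06 at 24 h, and at −0.28 and 0.07 at 72 h.

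The effect itself differed between times for many members. From 6 to 24 h the treatment effect moved up in 74 members and down in 22 by the interaction test, which is 44.6% and 13.3%, against 39.6% and 23.4% of all genes. From 24 to 72 h it moved up in 33 and down in 54, which is 19.9% and 32.5%, against 27.9% and 29.8%. In either direction, 57.8% and 52.4% of the members differed in the 2 intervals, below the 63% and 57.6% of all genes. Scaled to the poly-A controls 7 moved up and 11 down (all genes 2.69% and 13.1%), and then 16 up and 1 down (all genes 13.3% and 2.28%). The 2 interaction tests share the arrays of 24 h. The widest upward moves were Zfp469 (2.76) from 6 to 24 h and Zfp354c (2.99) from 24 to 72 h, and the widest downward ones Zfp521 (−2.34) and Zfp444 (−1.82).

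In DMSO alone the members also had a course. From 6 to 24 h 57 rose and 57 fell, against 32.9% and 40% of all genes. From 24 to 72 h 97 rose and 10 fell, against 36.3% and 24.3%, with a median of 0.44 against 0.08. On the poly-A scale 37 rose and 15 fell from 6 to 24 h, and 12 rose and 4 fell from 24 to 72 h. The earlier split, 22.3% and 9.04% of the members, was near the 20.2% and 12.2% of all genes on that scale, and the later one was 7.23% and 2.41% against 4.8% and 9.84%. Zfp457 rose the most in the later interval, from 4.94, 5.46 and 4.92 in DMSO at 24 h to 6.56, 6.70 and 7.18 at 72 h (1.71 ± 0.20, SE, adjusted p = 3.03e-06). Zfp467, a factor described in fat cell formation, rose the most in the earlier interval, from 6.33, 6.79 and 6.53 to 9.10, 8.91 and 8.87 (2.41 ± 0.11, adjusted p = 6.64e-11). Zfp185 (2.18, from a level near background) and Zfp612 (1.90) came next in the earlier interval, and Zfp772 and Zfp335 fell by 1.57 and 1.48. In the later one Zfp972 rose by 1.65, with another probe set at −0.02, and Zfp512b by 1.56. Zfp74 fell by 1.23 and Zfp354c by 1.38 between 24 and 72 h, the latter call being lost when DMSO array 1 or 2 at 24 h or 2 or 3 at 72 h was left out.

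Level and time course were therefore set as covariates. Members were dimmer than the genes at large: the median of their mean levels was log2 7.91, against 9.22, and 12.7% against 36.3% lay above log2 10. Brightness also depends on probe sequence, so these levels are no measure of abundance. Within bins of level the lower calls at 6 h remained more frequent among members: 35.7% against 12.4% under log2 5, 57.6% against 30.7% from 5 to 7, 63.2% against 38% from 7 to 9, and 56.9% against 31.3% at 9 and over. At 72 h the same bins had 28.6%, 45.5%, 44.1% and 49%, against 21.3%, 26.1%, 27.8% and 27.6%. At 24 h the members' 14.3%, 33.3%, 36.8% and 41.2% stood beside 19.2%, 30.8%, 31.5% and 32.4%.

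**Figure D3:**
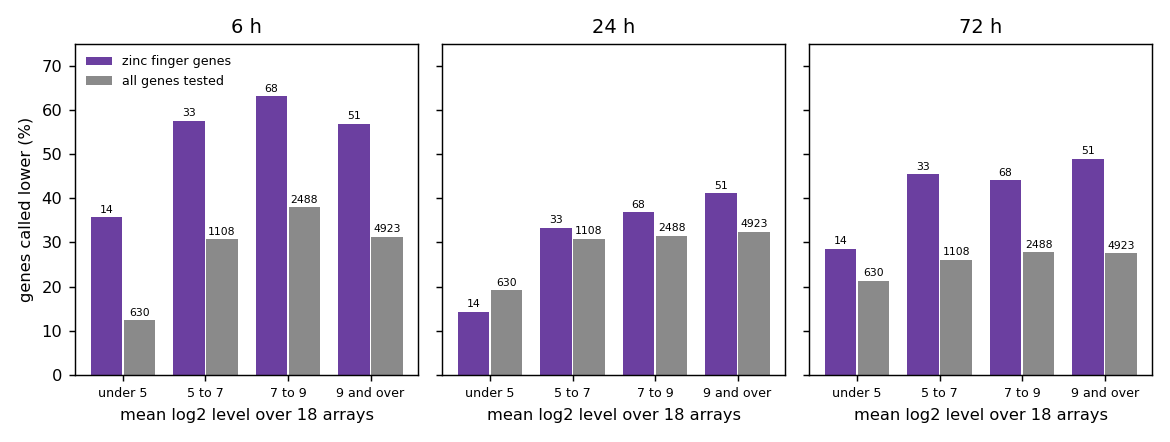
Share of genes called lower after chlorothalonil, in percent, by mean log2 level over the 18 arrays, for zinc finger genes and all genes tested at 6, 24 and 72 h. The number over each bar is the count of genes in it. At 6 h the bars of zinc finger genes reach 35.7% to 63.2% and those of all genes 12.4% to 38%.

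The course of each gene was taken from the DMSO arrays of the other times. It thus shared no array with the treatment change it was set against. For the change at 6 h it ran from 24 to 72 h, and for that at 24 h from 6 to 72 h. For the change at 72 h it ran from 6 to 24 h. A spline fit over all 9149 genes on level and course held 11.3%, 37.3% and 8.37% of the variance of the change at 6, 24 and 72 h. After it the members' median was −0.33 at 6 h (all genes 0.01), −0.0049 at 24 h (all genes 0.01) and −0.35 at 72 h (all genes −0.03). With level alone it was −0.43, −0.19 and −0.37, and with course alone −0.34, −0.03 and −0.38. The members' gap to all genes at 24 h thus shrank from −0.21 to −0.02 once the course was in the fit. Those at 6 and 72 h went from −0.49 to −0.33 and from −0.35 to −0.32. These fits are not alike, since only the course set against the 24 h change spans the time tested. That set against 72 h leaves out 24 to 72 h, when 97 members rose in DMSO and 10 fell. Whether the 72 h gap goes with that rise was therefore not tested. At 24 h the sign of the adjusted median turned when treated array 1 or 2 or DMSO array 2 was left out, within −0.04 to 0.02.

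**Figure D4:**
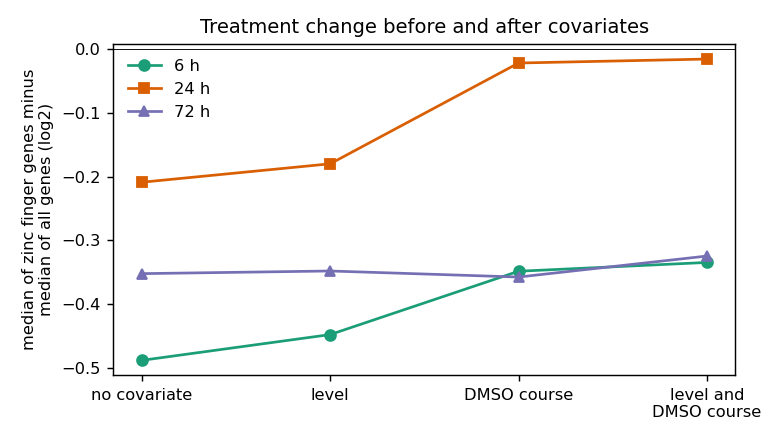
Median of the zinc finger genes minus that of all genes, in log2 units, for the treatment change at 6, 24 and 72 h, with no covariate and after a fit on level, on DMSO course or on both. The gap at 24 h goes from −0.21 to −0.02 and that at 72 h from −0.35 to −0.32.

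With the genes split into 3 equal bins by DMSO course, the 24 h change followed the course in members and other genes alike. In the bin that rose most in DMSO from 6 to 72 h, 50.5% of 91 members and 60.5% of all genes were lower at 24 h. In the bin that fell most, 58.3% of 24 members and 68.6% of all genes were higher. At 6 h the members were lower in 55.6%, 51.2% and 61% from the lowest to the highest bin of the course from 24 to 72 h, against 18.7%, 32.3% and 44.3% of all genes.

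At 6 h the lowest member was Zfp469, a gene of collagen fibre organisation whose loss causes brittle corneas. It stood at 5.32, 5.20 and 4.96 in treated and 8.02, 7.90 and 8.41 in DMSO arrays, a change of −2.94 ± 0.17 (SE, limma adjusted p = 3.48e-09). The groups were far apart at 6 h, and at 24 and 72 h they overlapped, with changes of −0.18 and −0.09 that were not called. In DMSO Zfp469 itself fell with time, by 1.14 from 6 to 24 h and by 0.89 from 24 to 72 h. Zfp157 had 4.94, 3.37 and 4.13 in treated and 7.05, 7.17 and 6.86 in DMSO arrays at 6 h (−2.88 ± 0.32, adjusted p = 1.91e-06). Its other probe set gave −0.87, so the size for Zfp157 depends on the probe set. At 24 h it was −0.84 (adjusted p = 0.028), and the −0.64 at 72 h was not called.

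Zfp956 was near the detection limit. At 6 h its treated arrays were all under log2 4 (3.91, 3.35 and 3.30) and its DMSO arrays at 5.14, 5.88 and 5.45, which makes it at least 2.81-fold lower (adjusted p = 2.55e-06). At 24 h both groups were at background, and at 72 h the treated arrays were the higher ones, at 5.27, 5.41 and 5.26 against 3.48, 3.62 and 4.40 (1.48 ± 0.22, adjusted p = 3.69e-05). With 2 of these 3 DMSO arrays under log2 4, the treated mean stood 1.31 above that limit. The bound for background is the brighter group's mean against log2 4. Zfp26 (−1.72 ± 0.21) and Zfp799 (−1.67 ± 0.14) completed the 6 lowest at 6 h, with Zfp704 described below. Of the treated arrays of Zfp799 1 was under log2 4 and their mean was 3.93, so its size is uncertain.

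Zfp143, an activator of small nuclear RNA and many housekeeping promoters, was the highest member at 6 h. Its treated arrays had 10.23, 10.24 and 10.18 and its DMSO arrays 8.94, 8.99 and 9.11 (1.21 ± 0.10, adjusted p = 9.24e-08). It was still higher at 24 h, by 0.93, and at 72 h the groups overlapped around 8.45. A second, dimmer probe set of Zfp143 gave 1.22, 1.79 and 1.18 at 6, 24 and 72 h. The end of the rise by 72 h thus rests on 1 probe set. Zfp521, a co-factor of progenitor cells known to repress Ebf1, turned over. It was higher at 6 h (8.34, 8.05 and 7.91 against 6.91, 6.87 and 7.06) and lower at 24 h (6.65, 6.78 and 7.03 against 7.96, 8.30 and 7.77). Its difference between the effects at 24 and 6 h was −2.34 ± 0.21 (adjusted p = 2.45e-07). Zfp444 (1.13), Zfp593 (1.01), Zfp869 (0.86) and Zfp280c (0.82) made up the rest of the 6 highest, and on the poly-A scale none of the 6 was called.

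Members that act on ribosomes, RNA or ubiquitin were taken as a list of 14. At 24 h 7 were higher and 2 lower (50% and 14.3%, beside 39.1% and 31.1% of all genes), with a median of 0.24. At 6 h 4 were higher and 7 lower (28.6% and 50%, beside 27.8% and 31.8%), and at 72 h 4 and 5 (28.6% and 35.7%, beside 37.2% and 27%). The list was drawn up with results of these data known, and its difference from the other members was not tested. It also holds Zfp467, whose role is in fat cell formation and which was among the lower ones at each time.

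Zfp622, which matures the large ribosomal subunit in the cytoplasm, had the largest rise of any member. At 24 h it stood at 10.05, 10.07 and 10.05 in treated and 8.02, 8.11 and 7.93 in DMSO arrays (2.04 ± 0.07, adjusted p = 6.38e-12). In DMSO it fell by 1.40 from 6 to 24 h, while the treated arrays stayed at 9.74 to 10.07 over those times. It was higher at 6 h by 0.41 and at 72 h by 0.96. Zfp593, another factor of large subunit assembly, had 7.87, 7.89 and 7.56 against 5.94, 6.08 and 6.13 at 24 h (1.72 ± 0.14, adjusted p = 3.43e-08), and 0.66 on the poly-A scale, where it was not called. Its second probe set agreed in sign at 6 and 24 h and was opposite at 72 h, −0.74 against 0.66. Zfp598, the ubiquitin ligase that marks collided ribosomes, had 9.51, 9.52 and 9.22 against 7.87, 7.98 and 7.67 at 24 h (1.58 ± 0.14, adjusted p = 1.2e-07). On the poly-A scale the change of Zfp598 was 0.52 and not called, while that of Zfp622 was 0.98 and called. At 6 h the groups of Zfp598 overlapped.

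The remaining genes of that list moved less. Zfp830, Zfp346, Zfp207, Zfp106 and Zfp638 were lower at 6 h by 0.81, 1.29, 0.52, 0.68 and 0.51. Other probe sets gave −0.21 for Zfp346, 0.62 for Zfp207, −0.34 and 0.61 for Zfp106, and −0.03 and −0.21 for Zfp638. For these genes the size of the fall depends on the probe set, and for Zfp207 and Zfp106 the sign does too. Zfp830 and Zfp207 were then higher at 24 h, by 0.23 and 0.44. Zfp330, a nucleolar protein, was the brightest member and was higher at the 3 times, with 12.85, 12.82 and 12.84 against 12.13, 12.07 and 12.06 at 72 h (0.75 ± 0.05, adjusted p = 1.66e-08), though on the poly-A scale its sign turned at 6 and 24 h. Zfp706 was lower at 6 h (−0.33) and higher at 24 h (0.39), the latter with the opposite sign on the poly-A scale. For Zfp91, a ubiquitin ligase of NF-κB signalling, the changes of −0.17, 0.24 and −0.01 were not called.

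**Figure D5:**
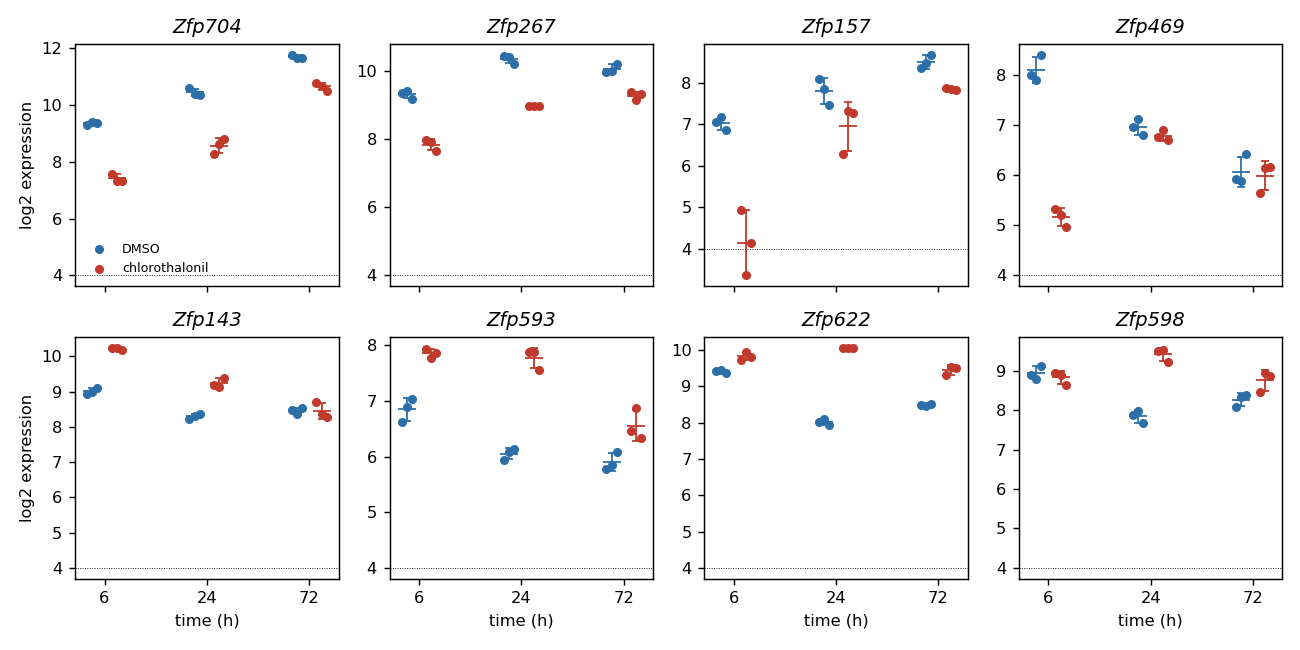
Log2 expression of 8 zinc finger genes in each array. Points are arrays, dashes with bars the mean ± SD of 3 arrays per group, the dotted line is the background limit of log2 4, and the x axis gives the time in hours in even steps, with a y axis scaled to each gene. Zfp704 and Zfp267 are lower in every treated array at each time, and Zfp622 is higher in every treated array at each time.

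At 24 h the other members among the 6 highest were Zfp444 (1.19), Zfp180 (1.05) and Zfp367 (1.01). The dimmer probe set of Zfp444 gave 0.35, not called. The last 2 were at −0.01 and −0.05 on the poly-A scale, so their direction rests on the deposited scale. The lowest by its fitted change was Zfp185, which is a LIM domain protein of the actin cytoskeleton and no C2H2 factor. It had 3.46, 3.36 and 4.20 in treated and 6.27, 6.36 and 6.12 in DMSO arrays (−2.58 ± 0.22, adjusted p = 6.6e-08). With 2 of the 3 treated arrays under log2 4, that size is uncertain, and the DMSO mean stood 2.25 above the limit. In DMSO it rose from 3.96, 3.76 and 4.49 at 6 h to 7.30, 7.07 and 7.09 at 72 h, and the treated arrays reached 5.61, 5.91 and 5.87 at 72 h.

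Zfp354c, a KRAB zinc finger gene, had 5.74, 4.88 and 4.52 against 7.34, 7.14 and 7.06 at 24 h (−2.13 ± 0.50, adjusted p = 0.00132). At 6 h 1 of its DMSO arrays read 3.96 beside 6.45 and 6.30, and the change was not called. Zfp90 was lower at 6 h by 0.96 and at 24 h by 1.41, with its second probe set at −0.88 and −1.65, and by 72 h the arrays of both treatments lay between 9.03 and 9.20. Zfp523 (−1.55) and Zfp267 (−1.38) were also among the 6 lowest at 24 h.

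At 72 h the lowest member was Zfp512b, with 6.74, 6.80 and 6.88 in treated and 8.33, 8.56 and 8.96 in DMSO arrays (−1.81 ± 0.18, adjusted p = 3.95e-07). The DMSO arrays had risen by 1.56 since 24 h, and the treated arrays were at 6.10 to 6.31 at that time. Zfp467 was lower by 1.45, with 7.52, 7.84 and 7.65 against 9.11, 9.10 and 9.16. Zfp846 (−1.49), Zfp185 (−1.36), Zfp592 (−1.30) and Zfp972 (−1.24) followed. For 3 of these the second probe set differed at 72 h, with −0.29 for Zfp846, 0.01 for Zfp592 and −0.06 for Zfp972, none of them called.

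Few members were higher at 72 h. After Zfp956, Zfp862 had 7.68, 7.68 and 8.08 against 6.65, 6.48 and 6.59 (1.24 ± 0.21, adjusted p = 9.37e-05), and 0.59 on the poly-A scale, where it was not called. It had been lower at 6 h by 1.47 and at 24 h by 0.72. Zfp775 was higher by 1.15, Zfp622 by 0.96 and Zfp367 by 0.89, none of them called on the poly-A scale (0.50, 0.30 and 0.23). Zfp819, above log2 4 only in the treated arrays at 72 h (4.52, 4.77 and 4.32), passed the level filter through them and was at least 1.45-fold higher there. Just inside the filter lay Zfp12, Zfp518b and Zfp819, with the array that ranked the third from the top at 4.20, 4.25 and 4.32, and just outside it Zfp709, Zfp658 and Zfp790, with 3.99, 3.87 and 3.80. Of the members 150 were above log2 4 in all 18 arrays.

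Summed markers of kidney and other cells also differed between treatments. At 72 h the summed level of 9 fibroblast markers was 12.21 to 12.47 in treated and 14.60 to 14.75 in DMSO arrays, led by Col3a1, while Lum, Thy1, Dcn and Pdgfra stayed at background. The sum of 5 leukocyte markers was 9.29 to 9.65 against 5.15 to 5.48, led by Cd68, with Ptprc, Itgam and Lyz2 at background. At 6 h the fibroblast sum was 12.47 to 12.59 in treated and 12.10 to 12.15 in DMSO arrays, the opposite direction, and at 24 h the groups overlapped. The leukocyte sum was also above that of DMSO at 6 h (5.25 to 5.54 against 4.90 to 5.12) and at 24 h (5.53 to 6.23 against 4.98 to 5.37). The sum of 13 proximal tubule markers was higher in treated arrays at 6 h (9.23 to 9.52 against 9.02 to 9.05). It was also higher at 24 h (8.75 to 9.06 against 8.02 to 8.17), and lower at 72 h (6.90 to 7.16 against 7.86 to 8.09). These markers did not move together. Ggt1 led the rise at 24 h, while Mme was lower in treated arrays (4.762 to 5.073 against 6.589 to 6.996). At 72 h Aqp1 and Mme were lower, while Ggt1 was higher (5.486 to 5.752 against 3.349 to 3.464). The epithelial sum overlapped at 6 and 72 h and was higher at 24 h (14.79 to 14.95 against 14.43 to 14.54). Krt8 led that rise, while Tjp1 (13.06 to 13.14 against 13.33 to 13.38) and Cdh2 (7.72 to 7.95 against 8.14 to 8.29) were lower. The podocyte sum was lower at 24 h (8.66 to 8.73 against 8.88 to 9.01) and at 72 h (8.87 to 9.15 against 9.34 to 9.41). At 72 h this was Synpo, while Wt1 was higher in treated arrays (5.77 to 6.25 against 5.50 to 5.72). The endothelial sum was lower at 72 h (4.93 to 5.18 against 5.89 to 6.14), and that of the distal nephron overlapped at each time. The part of these transcripts in the zinc finger result was not tested.

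Across the 3 times 129 members were lower at 1 or more times and 63 higher, which is 77.7% and 38%, against 56% and 62.6% of all genes. The members lower at every time numbered 21 (12.7%, against 7.4% of all genes), and 3 were higher at every time (1.81% against 10.1%), namely Zfp330, Zfp593 and Zfp622. Of the 96 members lower at 6 h, 44 were also lower at 24 h, 19 were higher at 24 h and 44 were lower at 72 h. These shares, 45.8%, 19.8% and 45.8%, stand beside 46.1%, 23.9% and 38% of the 2907 genes lower at 6 h in all, so at 24 h the repeat of the fall was at the background. A further 16 members were not called at any time (9.64%, against 6.81% of all genes).

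Of the 24 members called the same way at every time, Zfp704 kept the widest gap, with no change smaller than the −1.04 of 72 h. Its treated arrays had 7.59, 7.33 and 7.34 at 6 h, 8.29, 8.64 and 8.79 at 24 h and 10.78, 10.68 and 10.51 at 72 h. The DMSO arrays had 9.30, 9.40 and 9.37, then 10.59, 10.40 and 10.36, then 11.77, 11.66 and 11.66. Both courses rose and ran apart, with changes of −1.94 ± 0.11, −1.88 ± 0.11 and −1.04 ± 0.11 (adjusted p = 3.48e-09, 1.46e-09 and 1.47e-06). A second probe set gave −2.03, −1.89 and −0.70.

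Zfp267 was lower by 1.48, 1.38 and 0.78. Its treated arrays were at 7.97, 7.90 and 7.65 against 9.35, 9.41 and 9.19 at 6 h, and at 9.38, 9.15 and 9.31 against 9.96, 10.01 and 10.21 at 72 h. The groups did not overlap at any time, and a second, dimmer probe set gave −0.60, −1.29 and −0.99. Zfp821 was lower by 1.26, 1.01 and 0.94 in its brightest probe set, but another gave 0.27, −0.00078 and −0.78, so the fall of Zfp821 at 6 and 24 h rests on 1 probe set. Zfp512b was lower by 1.50 and 0.82 before 72 h. Zfp62 was lower by 0.89, 0.98 and 0.65, and its call at 72 h was lost when treated array 2 or 3 or DMSO array 1 was left out (−0.54, −0.60 and −0.62).

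Probe sets for the same gene can be set against each other for the 52 members with more than 1 above the filter. Of the other probe sets of members called at 6 h, 41 of 51 had the sign of the main one. At 24 h 41 of 46 did and at 72 h 32 of 35. Over all 71 other probe sets, called or not, changes were smaller, with medians of −0.24, −0.14 and −0.25. The main probe sets of these genes, each counted once per other probe set, had −0.51, −0.31 and −0.36.

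Among 31 members with a described role as a DNA-binding or chromatin factor, 19 were lower and 3 higher at 6 h, 11 and 8 at 24 h, and 13 and 1 at 72 h. The lower ones were 61.3%, 35.5% and 41.9% of the 31, close to the 57.8%, 35.5% and 44.6% of all members. Among all genes 31.8%, 31.1% and 27% were lower, so the share at 24 h was near that background. The higher ones were 9.68%, 25.8% and 3.23%, against 27.8%, 39.1% and 37.2% of all genes. The list also holds Zfp469, described above by its role in collagen fibres. Zfp318 (−1.60), Zfp282 (−1.52), Zfp111 (−1.20), Zfp703 (−1.19), Zfp292 (−1.12) and Zfp217 (−1.02) were lower at 6 h. These 6 were picked here for their size after the values were seen. Zfp57, which guards imprinted methylation, was lower by 0.50 at 6 h and 0.64 at 24 h and stood at 0.01 at 72 h. Zfp354a, known in kidney as Kid-1, was lower by 0.50 at 6 h. Zfp335, a part of a histone methyltransferase complex, was lower at 6 h (−0.74) and higher at 24 h (0.81).

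Zinc finger genes of other names were set beside the members. Of 44 genes with symbols of BTB, SCAN and KRAB zinc finger genes, outside the Zfp and Znf names, 26 were lower and 6 higher at 6 h. There were 16 and 10 at 24 h, and 16 and 7 at 72 h, with medians of −0.51, −0.13 and −0.24. The list was drawn by symbol, and Zbtb8os and Zbtb11os1 are in it by the start of their names alone. Zbtb8os was among the higher at 6 and 72 h, and Zbtb11os1 among the lower at 72 h. In DMSO from 24 to 72 h Zbtb8os fell and Zbtb11os1 rose. The lower ones were 59.1%, 36.4% and 36.4%, beside 31.8%, 31.1% and 27% of all genes, and the higher ones 13.6%, 22.7% and 15.9%, beside 27.8%, 39.1% and 37.2%. In DMSO 29 of them rose and 2 fell from 24 to 72 h (65.9% and 4.55%, beside 36.3% and 24.3% of all genes). Zbtb8a was lower by 1.43, 1.90 and 0.56 at the 3 times, and Zscan18 was higher by 2.03 at 6 h, lower by 0.91 at 24 h and higher by 0.71 at 72 h. Zbtb22 was lower by 1.34 at 6 h.

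Other zinc finger classes had smaller medians at 6 h. Of 15 Krüppel-like and Sp factors 6 were higher and 5 lower (−0.05). Klf4 rose by 2.52 at 6 h and 3.31 at 24 h, while Klf3 and Klf5 were lower by 1.14 and 0.73 at 24 h. Of 29 other C2H2 factors 5 were higher and 10 lower at 6 h (−0.05), led by the immediate-early genes Egr1 (3.69) and Egr2 (3.02), and Plagl1 was lower by 2.91 at 24 h. Of 20 CCCH genes, whose fingers bind RNA, 6 were higher and 6 lower (0.10), among them Zfp36, which speeds decay of AU-rich transcripts, higher by 1.96. The lower calls of these classes at 6 h, 33.3%, 34.5% and 30%, were near the 31.8% of all genes. At 24 h they were 46.7%, 44.8% and 45%, against 31.1% of all genes and 35.5% of the members. At 72 h they were 40%, 44.8% and 30%, against 27% of all genes and 44.6% of the members. The higher calls were 40%, 17.2% and 30% at 6 h (all genes 27.8%), and 20%, 20.7% and 25% at 24 h (all genes 39.1%). They were 20%, 13.8% and 15% at 72 h (all genes 37.2%).

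The partners of KRAB factors were on a list of 29 co-repressor and heterochromatin genes. Of these 4 were higher and 9 lower at 6 h, 6 and 13 at 24 h, and 5 and 10 at 72 h, with medians of −0.13, −0.19 and −0.29. The lower calls at 6 h, 31%, were at the background of 31.8%, and those at 24 and 72 h were 44.8% and 34.5%, beside 31.1% and 27% of all genes. Trim28 itself had changes of −0.12, 0.20 and −0.09, none called. Setdb1, the histone methyltransferase that Trim28 recruits, was lower by 0.50 at 6 h. Resf1, a partner of Setdb1, was lower by 0.94, 0.59 and 0.33, Morc3 by 0.85 at 6 h, and Chd3 by 0.61 at 24 h and 1.57 at 72 h.

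Zinc finger genes often lie in tandem clusters, so position was described with the RefSeq gene order of GRCr8. Of 162 members placed, 64 had 2 or more other Zfp or Znf genes within 5 genes on either side. At 6 h 59.4% of these were lower, against 57.1% of the 98 others, and the medians were −0.54 and −0.47. At 72 h 39.1% and 46.9% were lower.

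Promoter windows of 300 bases, 250 before to 50 after the start, were taken from RefSeq (GRCr8), which matched 135 of the 166 members. Their median GC content was 57.7% and their median ratio of observed to expected CpG 0.73, against 61.7% and 0.80 for the 7724 tested genes with a window. Motifs were searched on both strands. The GC box GGGCGG, bound by Sp and Krüppel-like factors, was in 48.1% of members' windows and 65.6% of those of tested genes, and in 34.9% of all 27457 windows. The CCAAT box was in 44.4%, 38.8% and 37.7%, and the Zfp143 core ACTACAA in 8.89%, 4.91% and 3.4%. The ETS site CCGGAAG was in 19.3%, 20.4% and 9.22%, and the YY1 site AAGATGG in 11.9%, 9.05% and 7.3%. Of the other motifs searched, the NRF1 core GCATGCGC was in 5.93% of members and 5.76% of tested genes, the E2F site TTCCCGC in 9.63% and 8.98%, the CRE TGACGTCA in 2.96% and 3.51%, the AP-1 site TGACTCA in 3.7% and 3.28%, and the heat shock pair GAANNTTC in 7.41% and 5.54%. The TATA box TATAAA was in 10.4% and 6.19%. Over all 27457 windows these 6 were in 2.66%, 4.47%, 1.91%, 4.53%, 8.34% and 14.3%.

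The motifs were also counted in the 77 members lower at 6 h and the 58 others, with no test of the difference. The shares were higher in the lowered members for the ETS site (23.4% against 13.8%), the YY1 site (15.6% against 6.9%), the NRF1 core (7.79% against 3.45%) and the heat shock pair (9.09% against 5.17%). They were lower for the Zfp143 core (6.49% against 12.1%), the TATA box (7.79% against 13.8%) and the AP-1 site (1.3% against 6.9%). The GC box (48.1% against 48.3%), the CCAAT box (45.5% against 43.1%), the E2F site (9.09% against 10.3%) and the CRE (2.6% against 3.45%) were nearly level. Most of these shares rest on few genes, as with 12 and 4 for YY1.

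Windows of 4 members are printed to show this range, 5′ to 3′ on the gene's strand, with every searched motif in capitals. GC boxes can overlap, as in the first pair of Zfp598. Zfp143 was the highest member at 6 h (chr1:173543634-173543933, plus strand, 2 GC and 2 CCAAT boxes). Zfp157 was among the lowest at 6 h (chr12:21384421-21384720, minus strand, 1 CCAAT box and 1 YY1 site). Zfp267 was lower at each time (chr2:120945184-120945483, plus strand, with GC and CCAAT boxes, an ETS site and a Zfp143 core). Zfp598 was higher at 24 h (chr10:14198574-14198873, plus strand, 5 GC boxes and 1 TATA box). A match is a string of letters in the window and shows no binding.
Zfp143: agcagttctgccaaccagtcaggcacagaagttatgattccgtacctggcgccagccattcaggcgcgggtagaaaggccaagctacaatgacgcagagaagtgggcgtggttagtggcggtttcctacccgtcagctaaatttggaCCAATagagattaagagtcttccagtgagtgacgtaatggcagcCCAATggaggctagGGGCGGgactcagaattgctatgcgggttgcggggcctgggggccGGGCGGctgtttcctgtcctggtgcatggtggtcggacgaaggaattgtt
Zfp157: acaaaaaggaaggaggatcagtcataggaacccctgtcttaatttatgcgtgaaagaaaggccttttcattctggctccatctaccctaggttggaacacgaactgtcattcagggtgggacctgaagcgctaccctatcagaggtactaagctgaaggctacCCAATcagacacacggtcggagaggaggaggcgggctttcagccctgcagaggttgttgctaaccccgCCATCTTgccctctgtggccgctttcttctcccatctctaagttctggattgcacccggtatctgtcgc
Zfp267: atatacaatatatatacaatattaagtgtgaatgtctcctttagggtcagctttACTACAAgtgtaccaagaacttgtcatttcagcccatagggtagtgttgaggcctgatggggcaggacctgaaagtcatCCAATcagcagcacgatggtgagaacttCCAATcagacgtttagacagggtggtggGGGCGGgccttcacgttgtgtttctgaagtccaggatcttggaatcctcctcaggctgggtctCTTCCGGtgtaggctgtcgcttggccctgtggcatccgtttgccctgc
Zfp598: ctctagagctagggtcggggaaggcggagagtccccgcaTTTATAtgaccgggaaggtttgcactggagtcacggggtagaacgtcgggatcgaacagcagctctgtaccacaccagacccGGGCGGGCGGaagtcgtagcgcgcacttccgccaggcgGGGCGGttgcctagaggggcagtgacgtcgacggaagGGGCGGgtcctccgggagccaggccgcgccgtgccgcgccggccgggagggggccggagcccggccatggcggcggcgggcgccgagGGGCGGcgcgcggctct
The GC content of these windows was 56.3% for Zfp143, 52.3% for Zfp157, 49.7% for Zfp267 and 72.3% for Zfp598. Over the 16 windows of members lower at all 3 times the median GC content was 50.3%.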

How the data were processed

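Total RNA from 18 cultures was measured on Affymetrix rat arrays. The authors deposited log2 expression values for 31099 probe sets, from 0.915 to 16.1, and the submitters' processing notes name GCRMA, with version and settings not given in the sources used here. GCRMA usually models each probe's background from its bases and equalises the distributions of the arrays, so a shift shared by most transcripts would be lost.

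The platform annotation pairs 20832 probe sets with 1 symbol, 436 with several and 9831 with none, and 20764 symbols were updated by Entrez identifier with RefSeq GRCr8. Probe sets without a single symbol were left out. One that passed log2 4 in 3 arrays was kept, and the brightest stood for its gene, which gave 9149 genes. A further 9 names that end in a letter and digits were not counted as members. Of the members 4 rest on probe set types that can bind related transcripts.

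Limma 3.58.1 (R 4.3.3) fitted 6 group means to the 18 arrays (12 residual and 2.76 prior degrees of freedom). Tests were two-sided and adjusted by the Benjamini-Hochberg method over 9149 genes, with a threshold of 0.05. Natural splines of 4 degrees of freedom gave the covariate fits. The steps were tested on simulated data. Alternatives were other scalings, filters, probe sets, blocks, weights and left-out arrays. Protein sequence classes were not analysed here. The number of arrays limits the precision.

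Genes were named by rule. Among the members called with groups that did not overlap, these were the 6 highest and 6 lowest per treatment time. Among members called alike at all 3 times, the 6 whose smallest absolute change over the times was largest were taken. The 3 brightest, 3 per direction for each other comparison, 3 genes per list and those at the filter's edge were named too. Other names were chosen after their values were seen. The members and lists were chosen with earlier results of these data known.

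Replicate numbers did not pair the samples: deviations of treated and DMSO arrays with the same number, within a time, correlated at −0.04 to 0.31, with 3 of 9 above 0.1.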

Additional observations from a re-analysis of the deposited data

Results flagged for a closer look

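The treatment effect differed between times, by limma's interaction test with an adjusted p under 0.05, in 96 members from 6 to 24 h and in 87 from 24 to 72 h. These are 57.8% and 52.4% of the members, below the 63% and 57.6% of all genes. On the poly-A scale 18 and 17 members differed (10.8% and 10.2%, against 15.8% and 15.6% of all genes). Values are differences of log2 changes, the later effect minus the earlier one. They are given for each member with such a difference that the naming rule had picked in any comparison, so members with larger differences may be missing.

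From 6 to 24 h the effect moved up in Zfp469 (2.76), Zfp956 (2.04), Zfp157 (2.04, and 0.36, not called, in its dimmest probe set), Zfp282 (1.85), Zfp772 (1.81), Zfp598 (1.69), Zfp622 (1.63), Zfp335 (1.55), Zfp180 (1.07), Zfp26 (1.07), Zfp367 (1.07), Zfp612 (0.98), Zfp799 (0.94), Zfp862 (0.75), Zfp706 (0.72), Zfp593 (0.71) and Zfp512b (0.69). It moved down in Zfp521 (−2.34), Zfp185 (−2.23), Zfp592 (−1.48, and 0.50 in its dimmest probe set), Zfp467 (−0.71), Zfp869 (−0.66), Zfp846 (−0.59), Zfp280c (−0.54), Zfp90 (−0.45) and Zfp330 (−0.19).

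From 24 to 72 h it moved up in Zfp354c (2.99), Zfp775 (2.04), Zfp862 (1.97), Zfp523 (1.54), Zfp956 (1.41), Zfp90 (1.32), Zfp185 (1.22), Zfp74 (1.10), Zfp704 (0.84), Zfp521 (0.69), Zfp267 (0.60) and Zfp330 (0.52). It moved down in Zfp444 (−1.82, and −0.53, not called, in its dimmest probe set), Zfp280c (−1.49), Zfp282 (−1.44, a call lost at −1.15 without treated array 1 at 72 h), Zfp335 (−1.35), Zfp598 (−1.08), Zfp622 (−1.08), Zfp593 (−1.06), Zfp180 (−1.02), Zfp512b (−0.99), Zfp143 (−0.93), Zfp846 (−0.92) and Zfp972 (−0.72). For Zfp956 the treated arrays at 6 h and both groups at 24 h were under log2 4, and for Zfp185 both groups at 6 h and the treated group at 24 h were near it. The sizes and ranks of the differences of these 2 genes are therefore not measured. No explanation of these differences was tested.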

How the results depend on the processing

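Among the members' counts, medians and adjusted medians, 432 comparisons with an alternative kept their direction and roughly their size, 34 moved and 5 changed sign. A count was taken as kept within a set ratio of the main one. So 131 members called at 24 h on the poly-A scale, against 99, were taken as kept. Adjusted medians cannot move under the poly-A scaling, which shifts all genes of an array alike, and were counted as kept too. Of the 81 results for single genes, 42 were the same under every alternative tried, 26 lost a call under at least 1 and 14 changed sign under at least 1. The cause was not tested unless the alternative's own construction shows it.

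Scaling to the poly-A controls gave 0, 1 and 1 members higher at 6, 24 and 72 h and 130 lower at 24 h, with medians of −1.10, −1.21 and −0.93. It gave 18 (7 up, 11 down) and 17 (16 up, 1 down) differences between effects, and 52 (37 up, 15 down) and 16 (12 up, 4 down) changes in DMSO. These 4 counts are 10.8%, 10.2%, 31.3% and 9.64% of the members, beside 15.8%, 15.6%, 32.4% and 14.6% of all genes. Signs turned for Zfp330 (6 h −0.19, 24 h −0.84), Zfp180 (24 h −0.0083), Zfp367 (24 h −0.046), Zfp706 (24 h −0.67, 72 h −0.48) and Zfp91 (24 h −0.82).

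Quantile normalization moved the 6 h median to −0.42 and the adjusted 24 h median to 0.0087. Centring moved the medians to −0.53, −0.083 and −0.23, and turned Zfp91 at 72 h (0.031). Without a filter they were −0.25, −0.044 and −0.12, since 49 names near background entered. With a mean above log2 6 the adjusted medians were −0.28 at 6 h and 0.021 at 24 h. With level alone they were −0.43 and −0.19. The dimmest probe set that passed gave a 6 h median of −0.34, 19 members falling in DMSO from 24 to 72 h, and opposite signs for Zfp821 (6 h 0.27), Zfp91 (6 h 0.13, 72 h 0.16), Zfp592 (72 h 0.014, and 0.50 for the difference from 6 to 24 h), Zfp593 (72 h −0.74) and Zfp972 (−0.019 in DMSO from 24 to 72 h).

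Leaving out single arrays gave medians of −0.53 to −0.45 at 6 h, and adjusted medians of −0.35 to −0.27 at 6 h and −0.044 to 0.021 at 24 h. Zfp91 at 72 h ranged from −0.14 to 0.069. Calls of Zfp282 for the difference from 24 to 72 h (−1.15 without treated array 1 at 72 h) and of Zfp354c in DMSO (−1.40 to −1.20) were lost.

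With the replicate number as a block, 116 members were called at 6 h, 98 at 24 h and 94 at 72 h, against 114, 99 and 95. With the block these are 69.9%, 59% and 56.6% of the members, beside 58.8%, 69.4% and 63.6% of all genes. Counting names that end in a letter and digits too, chosen after seeing the data, gave 117 at 6 h and 104 at 24 h.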
